A study of Homo sapiens with 6 samples.

Results

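The kinesin motor genes were examined in RNA-seq libraries of cells of the third pharyngeal pouch endoderm (3PPE) derived from human embryonic stem cells. Members were the protein-coding rows of the count matrix whose Ensembl identifier maps in GENCODE 29 to a symbol of KIF, digits and an optional letter A to C, or to KIFC1, KIFC2 or KIFC3. This gave 42 genes of 58735 rows, of which 19951 are protein-coding. Kinesins with other symbols, such as CENPE and STARD9, fall outside this rule. The 42 genes were divided by textbook role into 14 mitotic and cytokinetic kinesins, 15 transport kinesins and 13 others. The others act at cilia and microtubule ends or have a less settled role. The cells were H9 (WA09), a human embryonic stem cell line, first grown on mouse embryonic fibroblast feeders. They were brought to definitive endoderm with Activin A and WNT3A and then to 3PPE with retinoic acid, SB431542, BMP4 and IWP2. At day 7 the cells received either a negative control siRNA (siControl, genotype given as WT) or siRNA against HOXA3 (siHOXA3, genotype given as HOXA3 knockdown), both by lipid transfection, and were harvested at day 9. Each group had 3 libraries, and all 6 came from the same line and the same differentiation scheme.

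Kinesins are ATP-driven motors that walk along microtubules or take their ends apart. Transport kinesins such as the KIF5 heavy chains carry vesicles, organelles and RNA toward the cell periphery, and the heterotrimeric KIF3 motors carry cargo into the cilium. Mitotic kinesins build the bipolar spindle, move chromosomes and organise the central spindle on which cytokinesis depends, and their transcripts accumulate in G2 and M phase of dividing cells. In embryonic endoderm and other growing epithelia both kinds act side by side.

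The libraries held between 14117150 and 15282307 counts each, so that a floor of 3 counts stood at 0.197 to 0.211 counts per 1000000 counts (CPM). HOXA3, the targeted gene, had 248, 240 and 236 counts in the siControl libraries and 159, 199 and 220 counts in the siHOXA3 libraries. Its level was 16.0 ± 0.606 CPM (SD, n = 3) in siControl and 13.2 ± 2.28 CPM (SD, n = 3) in siHOXA3, and siHOXA3 replicate 3 at 15.49 CPM lay within the siControl range of 15.46 to 16.65 CPM. The log2 fold change was -0.27 with an SE of 0.157 and did not pass the test (edgeR quasi-likelihood test, Benjamini-Hochberg adjusted p = 0.828), so the group names below are those of the labels. The paper reports lower HOXA3 after the siRNA by qRT-PCR, Western blot and immunofluorescence, which are separate measurements from these libraries. The library labelled siHOXA3 replicate 2 stood apart: its chi-square statistic per degree of freedom against each other library was 28.2 to 34.1, against 4.83 to 11.7 between the other libraries. Of the markers of the labelled cell type, EPCAM, CDH1, CLDN6, KRT8 and KRT18 were high and EYA1 stood at 36.2 CPM in siControl and 40.7 CPM in siHOXA3. The endoderm factor FOXA2 had 0 to 2 counts and TBX1 had 0 to 10 counts in a library, so these defining factors were at or near the floor. The paper describes the RNA-seq as done in triplicate, and the legend of its figure with these data states 3 independent biological repeats. Nothing in the labels says that the 3 libraries of a group came from separate differentiations, so the p-values measure only the spread between these libraries. In bulk RNA, fewer cells of a kind and less RNA per cell cannot be told apart.

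The promoters of the mitotic kinesins carried a pair of sequence motifs that the transport kinesins mostly lacked. Windows from 250 bases before to 50 bases after the start were held by RefSeq (GRCh38.p14) for 34 of the 42 genes, in 43 windows. They were searched on both strands for the cell cycle genes homology region (CHR, the letters TTTGAA or TTTAAA), which is a known element of G2 and M phase promoters, and for the CCAAT box (the letters CCAAT), which NF-Y is known to bind. The 7 stretches printed here were chosen to show the pair in 4 mitotic genes that hold it, beside KIF15, KIF5B and KIF5C, which are described further below. Each runs 5′ to 3′ on the strand of its gene and ends at the base before the RefSeq start, with CHR and CCAAT matches in capitals, and a match on the opposite strand reads ATTGG for the CCAAT box or TTCAAA for the CHR.
KIF11 (chr10:92593020-92593129, plus strand): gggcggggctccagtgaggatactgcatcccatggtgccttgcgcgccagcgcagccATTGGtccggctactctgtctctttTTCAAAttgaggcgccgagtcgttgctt
KIF20A (chr5:138179002-138179111, plus strand): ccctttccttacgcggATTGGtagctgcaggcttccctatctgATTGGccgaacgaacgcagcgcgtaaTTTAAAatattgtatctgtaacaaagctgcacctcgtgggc
KIF23 (chr15:69414239-69414348, plus strand): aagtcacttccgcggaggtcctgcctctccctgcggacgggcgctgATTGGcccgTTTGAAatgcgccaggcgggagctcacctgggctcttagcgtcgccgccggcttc
KIF4A (chrX:70289994-70290103, plus strand): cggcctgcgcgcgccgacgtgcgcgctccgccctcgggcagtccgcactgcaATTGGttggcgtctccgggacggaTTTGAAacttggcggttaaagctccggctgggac
KIF15 (chr3:44761684-44761793, plus strand): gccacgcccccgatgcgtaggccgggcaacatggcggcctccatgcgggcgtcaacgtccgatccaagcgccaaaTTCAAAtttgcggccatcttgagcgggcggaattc
KIF5B (chr10:32056426-32056575, minus strand): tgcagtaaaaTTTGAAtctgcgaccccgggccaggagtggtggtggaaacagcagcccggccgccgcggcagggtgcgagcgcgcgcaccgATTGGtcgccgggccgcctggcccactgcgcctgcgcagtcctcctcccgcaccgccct
KIF5C (chr2:148875117-148875226, plus strand): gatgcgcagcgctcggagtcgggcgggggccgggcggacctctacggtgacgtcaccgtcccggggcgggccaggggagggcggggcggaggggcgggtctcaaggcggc

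In KIF11, KIF20A, KIF23 and KIF4A a CCAAT box was followed downstream by a CHR. Not every abundant mitotic gene held the pair: the windows of KIF2C had a CHR and no CCAAT box, and those of KIF22 a CCAAT box and no CHR. KIF15 likewise had a CHR with no CCAAT box, and in KIF5B the CHR lay upstream of the CCAAT box. The printed stretch of KIF5C held neither motif, but its window had a CCAAT box farther upstream, at position -222 from the start, and no CHR. The window of KIF21A, not printed, held neither motif. A CHR was found in 12 of 14 mitotic kinesin genes (85.7%), in 2 of 11 transport genes (18.2%) and in 0 of 9 other genes, against 27.9% of the 27305 genes with a window. The CCAAT box was found in 11 of 14 mitotic genes (78.6%), 4 of 11 transport genes (36.4%) and 3 of 9 other genes (33.3%), against 39.7% of all genes. Both motifs stood in 10 of 14 mitotic genes (71.4%), 1 of 11 transport genes (9.09%) and 0 of 9 others, against 11.2% of all genes.

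The arrangement of the motifs was shared as well. A CHR began within 60 bases after the start of a CCAAT box in 9 of 14 mitotic genes (64.3%), in 0 of 11 transport genes and in 0 of 9 others, against 3.29% of all genes. Counted from first base to first base, the distance was 23 bases in KIF14, 24 in KIF4A and KIF4B, 25 in KIF11 and 26 in KIF20A. It was 9 bases in KIF23, 34 in KIF18B, 35 in KIF18A and 50 in KIFC1. KIF4B is an intronless copy of KIF4A, and 163 of 263 aligned bases (62.0%) of their windows were identical, so these 2 are not independent cases. An E2F motif (TTTGGCGC, TTTCCCGC, TTTGCCGC or TTTCGCGC) was found in 1 of 14 mitotic, 0 of 11 transport and 1 of 9 other genes, against 3.99% of all genes, and TAATTA, the core letters of many homeodomain sites, in none of the 34, against 5.95% of all genes. These matches describe letters in a window and not binding.

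Of the 42 genes, 36 passed the filter on low counts, namely 12 mitotic, 14 transport and 10 other kinesins. KIF2B, a testis-enriched mitotic depolymerase, had no count in any library. KIF4B had 11, 11 and 5 counts in siControl and 7, 5 and 5 in siHOXA3, and 606 of its 4329 stretches of 50 bases occur in other transcripts, chiefly KIF4A. KIF17, an intraflagellar and dendritic transport motor, had 15, 4 and 3 counts in siControl and 7, 2 and 1 in siHOXA3. KIF12, KIF19 and KIF25 had between 0 and 20 counts in a library. These 6 genes were not tested.

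Levels were compared between genes as transcripts per 1000000 (TPM), computed from the counts per kilobase of exon. The mitotic kinesins were mostly abundant and the transport kinesins mostly lower, although the transport motor KIF5B had the highest level of all by this length. That rank depended on the length used. With the longest protein-coding transcript as length, KIF23 averaged 204.9 TPM over the 6 libraries and KIF5B 159.2 TPM. The median level of the tested genes was 94.2 TPM for mitotic kinesins (range 29.4 to 159.6), 23.4 TPM for transport kinesins (range 0.701 to 210.1) and 10.4 TPM for the others (range 0.359 to 67.1). Among all genes tested, 10 mitotic, 2 transport and 1 other kinesin stood at or above percentile 75 of level. The mitotic genes made up 62.5 ± 1.09% (SD, n = 3) of the summed TPM of the 42 genes in siControl and 63.0 ± 0.951% (SD, n = 3) in siHOXA3. In the order of level over the 42 genes, 36 of 41 neighbouring pairs overlapped across their 6 libraries. The 5 pairs that did not were KIF5B above KIF20A, KIF22 above KIF4A, KIF2A above KIF1C, KIF26A above KIF13B and KIFC3 above KIF26B. The plot of levels by library shows this order within each role.

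**Figure D1:**
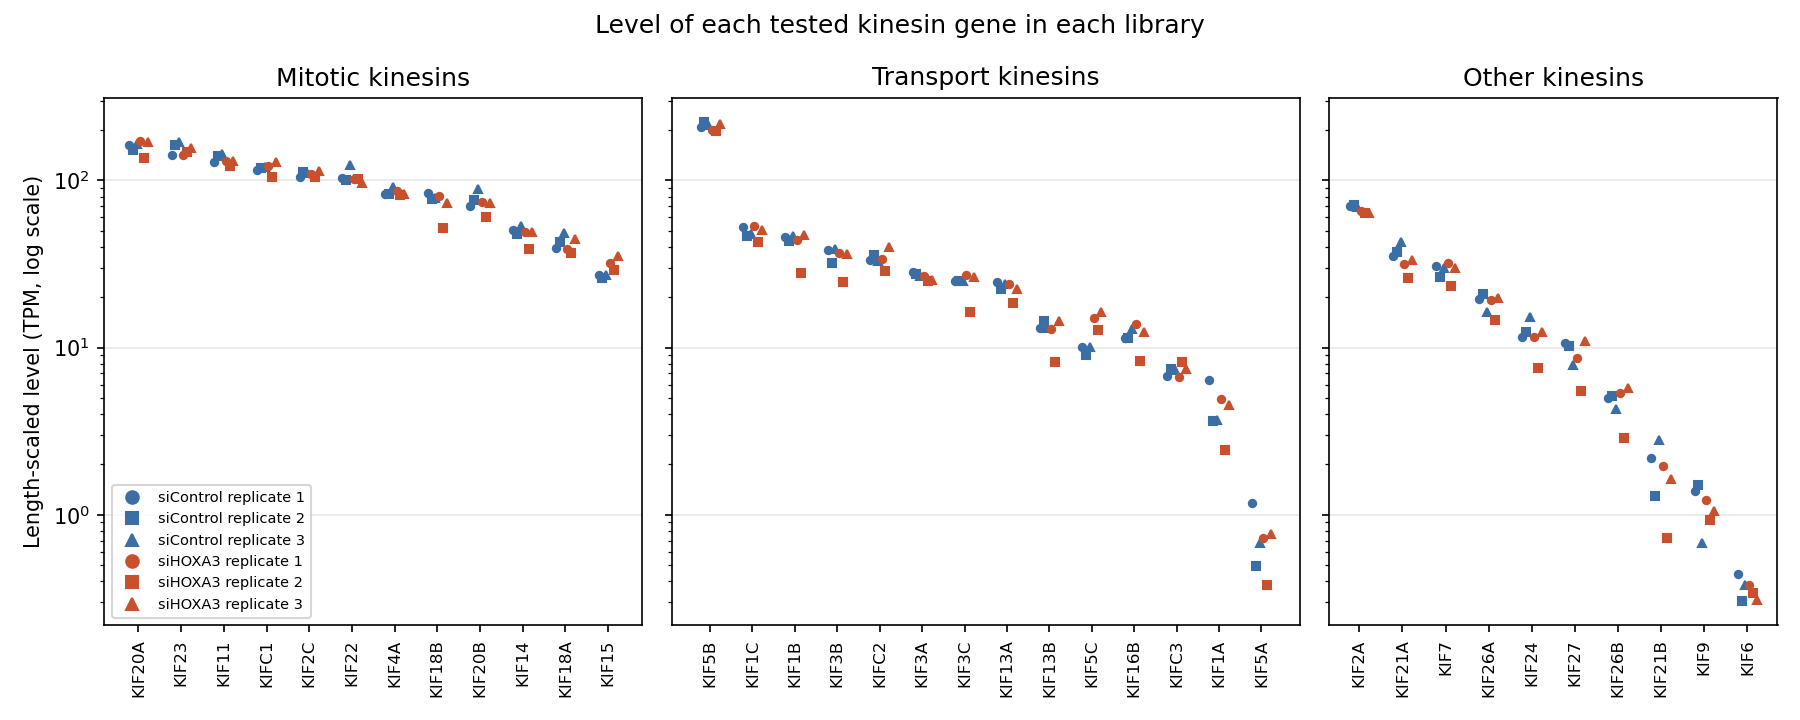
Level of the 36 tested kinesin genes in each library, in TPM on a log axis, with genes ordered by mean level within each role. Blue marks are the 3 siControl libraries and orange marks the 3 siHOXA3 libraries, with the replicate given by the shape. Mitotic kinesins lie between 29.4 and 159.6 TPM on average, KIF5B stands above all others by exon length, and the siHOXA3 replicate 2 mark is often the lowest among transport and other kinesins.

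KIF20A, which brings the chromosomal passenger complex to the central spindle, had the highest mean TPM of the mitotic kinesins by exon length. It had 164, 152 and 164 TPM in the siControl libraries and 172, 136 and 169 TPM in the siHOXA3 libraries. KIF23, the motor of centralspindlin, had 142, 162 and 169.6 TPM in the siControl libraries and 141, 147 and 157 TPM in the siHOXA3 libraries. The values of KIF23 and KIF20A overlapped. With the longest protein-coding transcript as length, KIF23 averaged 204.9 TPM and KIF20A 149.6 TPM. KIF11, which slides antiparallel microtubules apart to make the spindle bipolar, had 128, 141 and 144 TPM in the siControl libraries and 131, 122 and 131 TPM in the siHOXA3 libraries. The groups overlapped for each of these genes. KIFC1, a minus-end motor that focuses spindle poles, had 115, 119 and 121 TPM in the siControl libraries and 122, 104 and 129 TPM in the siHOXA3 libraries. KIF2C, the centromeric microtubule depolymerase, had 105, 112 and 110.2 TPM in the siControl libraries and 109, 105 and 114 TPM in the siHOXA3 libraries. KIF22, a chromokinesin that pushes chromosome arms outward, had 103, 99.8 and 123 TPM in the siControl libraries and 101, 101 and 95.8 TPM in the siHOXA3 libraries. These also overlapped, and no library was consistently high or low. KIF18B, which shortens astral microtubules, had 84.1, 77.3 and 78.5 TPM in the siControl libraries and 80.3, 52.0 and 73.3 TPM in the siHOXA3 libraries, and only siHOXA3 replicates 2 and 3 lay below the siControl values.

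Among transport kinesins KIF5B, the ubiquitous heavy chain of conventional kinesin, had 207, 223 and 215 TPM in the siControl libraries and 201, 198 and 216 TPM in the siHOXA3 libraries. The groups overlapped, although siHOXA3 replicates 1 and 2 lay below the siControl values. KIF1C, a fast long-distance vesicle motor, had 52.6, 46.6 and 47.7 TPM in the siControl libraries and 52.9, 42.8 and 50.1 TPM in the siHOXA3 libraries. KIF1B, which moves mitochondria and synaptic vesicle precursors, had 45.7, 43.3 and 46.1 TPM in the siControl libraries and 44.1, 27.7 and 47.1 TPM in the siHOXA3 libraries. In KIF1B the other siHOXA3 libraries matched siControl and replicate 2 alone was low. KIF3B had 38.3, 31.9 and 38.7 TPM in the siControl libraries and 36.9, 24.6 and 36.0 TPM in the siHOXA3 libraries, with the same low library. KIF3A, its partner in the heterotrimeric motor, had 28.5, 27.5 and 26.8 TPM in the siControl libraries and 26.8, 25.1 and 25.2 TPM in the siHOXA3 libraries. On the TPM scale KIF3A was slightly lower in every siHOXA3 library, whereas its CPM groups overlapped. KIFC2, a C-terminal motor, had 33.2, 35.9 and 32.8 TPM in the siControl libraries and 33.8, 28.9 and 39.8 TPM in the siHOXA3 libraries, and the exons of its gene overlap those of FOXH1. Beside KIF5B the neuronal heavy chains were lower, with KIF5C averaging 12.2 TPM and KIF5A 0.701 TPM over the 6 libraries. KIF1A, the synaptic vesicle precursor motor, averaged 4.27 TPM.

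Among the other kinesins KIF2A, a depolymerase of spindle poles and neurites, had 69.9, 70.9 and 69.0 TPM in the siControl libraries and 65.6, 63.7 and 63.5 TPM in the siHOXA3 libraries. KIF2A did not overlap between groups on the TPM scale, but on the CPM scale it did, at 81.6 to 86.4 CPM in siControl and 76.0 to 85.0 CPM in siHOXA3. KIF7, the ciliary tip regulator of Hedgehog signalling, had 30.9, 26.4 and 29.7 TPM in the siControl libraries and 31.9, 23.5 and 30.0 TPM in the siHOXA3 libraries, with replicate 2 of siHOXA3 again the lowest. KIF24, which restrains cilium assembly at the mother centriole, had 11.6, 12.5 and 15.1 TPM in the siControl libraries and 11.5, 7.49 and 12.3 TPM in the siHOXA3 libraries. KIF21B, a neuronal and lymphoid relative of KIF21A, had 2.18, 1.30 and 2.81 TPM in the siControl libraries and 1.95, 0.725 and 1.64 TPM in the siHOXA3 libraries, a spread within each group as wide as the difference between them.

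The comparison of siHOXA3 with siControl asks whether kinesin transcripts changed when HOXA3 was targeted, and whether mitotic and transport motors differed in this. No kinesin passed an adjusted p of 0.05 in the edgeR test over all 16561 genes, where 1 gene did (0.00604%). At an unadjusted p under 0.05 there were 3 of 36 kinesins, 2 higher (KIF5C and KIF15) and 1 lower (KIF21A), against 6.36% of all genes, 3.79% higher and 2.57% lower. The same 3 were the only tested kinesins whose CPM groups did not overlap, against 13.3% of all genes, 6.41% higher and 6.88% lower. An exact permutation test of 3 against 3 libraries cannot go below a p of 0.1, so none was used for single genes. On the TPM scale 2 were higher and 3 lower without overlap, KIF2A and KIF3A being the additions, against 4.78% and 8.97% of all genes. DESeq2 called 38 genes (0.229%) at an adjusted p under 0.05, and KIF5C was among them with an adjusted p of 0.0108.

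In the main fit the medians of mitotic and transport kinesins lay close to each other and to 0, and the transport median varied with the libraries used. The median log2 fold change was -0.04 over the 12 tested mitotic genes (5 higher, 7 lower, 1 at p under 0.05), -0.06 over the 14 transport genes (4 higher, 10 lower, 1 at p under 0.05) and -0.09 over the 10 others (1 higher, 9 lower, 1 at p under 0.05). Over all genes tested it was 0.0019, with 8341 higher and 8220 lower. The mitotic log2 fold changes ran from -0.18 for KIF18B to 0.31 for KIF15, and the transport ones from -0.30 for KIF5A to 0.64 for KIF5C. The 95% confidence interval lay within 0.5 of 0 on the log2 scale for 11 of 12 mitotic, 11 of 14 transport and 4 of 10 other genes. For the abundant motors the intervals were narrow: -0.26 to 0.16 for KIF11, -0.18 to 0.26 for KIF20A and -0.23 to 0.20 for KIF5B. After KIF5C, KIF15 and KIF21A the smallest p-values belonged to KIF24 (log2 fold change -0.28, SE 0.170), KIF21B and KIF18B (SE 0.130), and the groups of each overlapped. Without siHOXA3 replicate 2 the transport genes were 9 higher and 5 lower with a median of 0.02, and the mitotic genes 4 higher and 9 lower with a median of -0.05. Without siControl replicate 3 the mitotic median was 0.0077. Without siHOXA3 replicate 1 the transport median was -0.16 (4 higher, 10 lower) and the mitotic median -0.03. In limma-voom with quality weights they were 0.05 and -0.04.

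**Figure D2:**
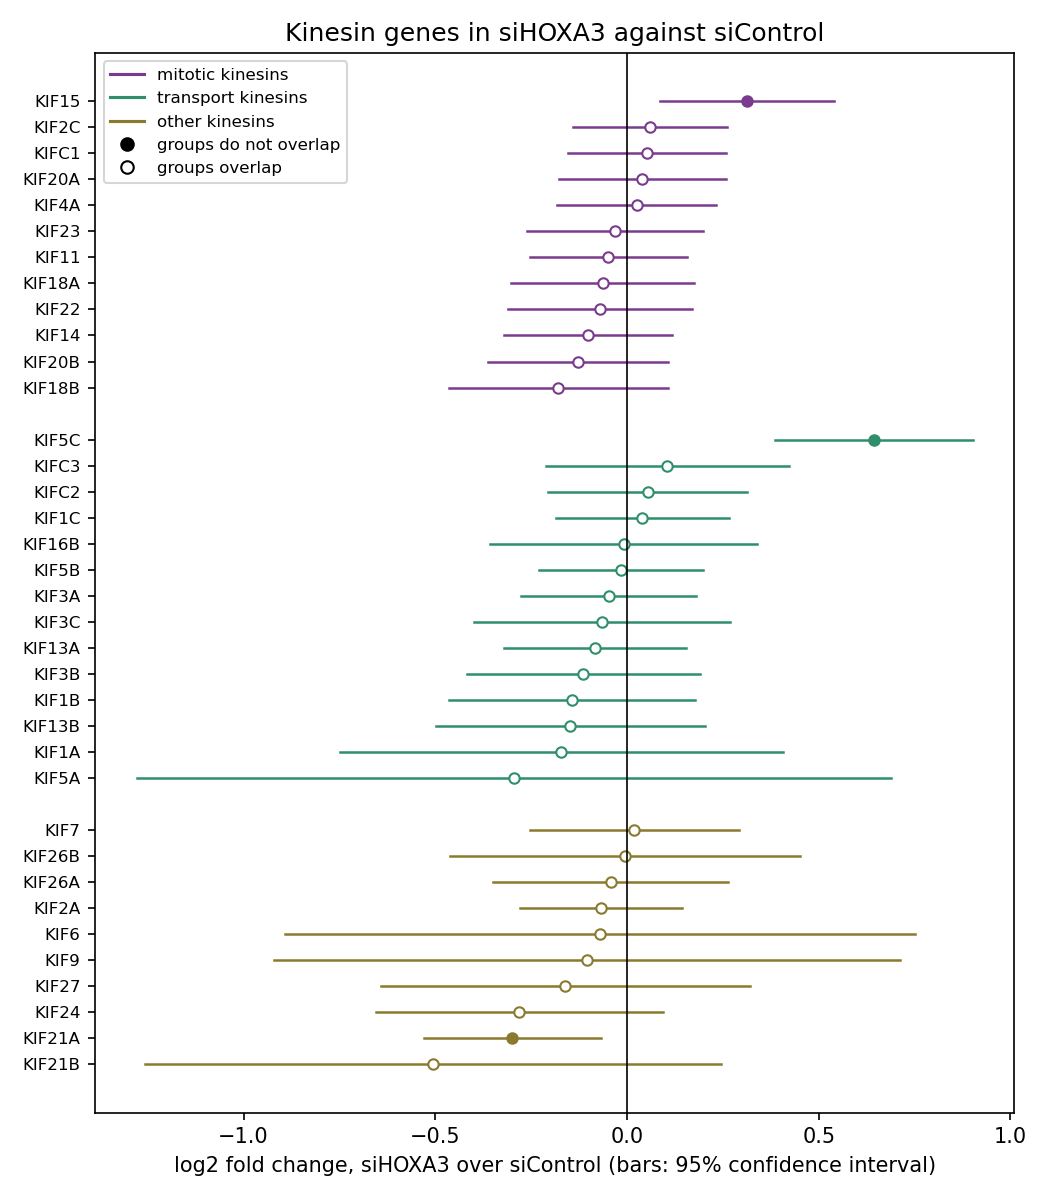
The log2 fold change of each tested kinesin gene, siHOXA3 over siControl, from the edgeR fit, with bars for the 95% confidence interval and colours for the role. Filled points are genes whose groups do not overlap in CPM: KIF15 at 0.31, KIF5C at 0.64 and KIF21A at -0.30, the intervals of which do not reach 0.

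KIF5C was the kinesin with the largest difference and the smallest p. It encodes a conventional kinesin heavy chain known best from neurons, and its gene lies on chromosome 2 from 148875250 to 149026759, plus strand (GRCh38, GENCODE 29). It had 355, 322 and 352 counts in siControl and 518, 496 and 539 in siHOXA3, or 23.8, 21.3 and 23.1 CPM in the siControl libraries and 35.6, 33.0 and 38.0 CPM in the siHOXA3 libraries. Every siHOXA3 library, replicate 2 included, was higher than every siControl library. The mean was 22.7 ± 1.31 CPM (SD, n = 3) in siControl and 35.5 ± 2.49 CPM (SD, n = 3) in siHOXA3, a fold of 1.56 (log2 fold change 0.64, SE 0.117, 95% confidence interval 0.39 to 0.90). By the size of its p in the edgeR test it ranked 7 among 16561 genes, with an adjusted p of 0.416. The adjusted p fell below 0.05 with DESeq2 (0.0108), with no filter on low counts (0.00608), in limma-voom with quality weights (0.0147) and without siHOXA3 replicate 2 (0.0115), and over all alternatives it ranged from 0.00608 to 0.997 with log2 fold changes of 0.60 to 0.70.

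Among the conventional kinesin heavy chains KIF5C had a larger share in every siHOXA3 library than in any siControl library. It made up 4.62%, 3.88% and 4.48% of the summed KIF5A, KIF5B and KIF5C TPM in siControl and 6.90%, 6.06% and 7.04% in siHOXA3. The share was 4.33 ± 0.392% (SD, n = 3) against 6.67 ± 0.531% (SD, n = 3), with no overlap. KIF5B went from 95.3 ± 0.538% to 93.1 ± 0.617% (SD, n = 3 each), and the sum was 226 ± 7.33 TPM against 221 ± 11.4 TPM. The share rests on the same counts as the fold change of KIF5C and was not tested apart from it. Of the 50-base stretches of KIF5C, 0.043% occur in transcripts of another gene.

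KIF15, a plus-end spindle motor that acts beside KIF11, was the mitotic kinesin with the largest difference. Its gene lies on chromosome 3 from 44761717 to 44873376, plus strand (GRCh38, GENCODE 29). It had 547, 530 and 544 counts in siControl and 639, 643 and 663 in siHOXA3, or 36.7, 35.0 and 35.6 CPM in the siControl libraries and 43.9, 42.8 and 46.7 CPM in the siHOXA3 libraries. All siHOXA3 values were above all siControl values, with means of 35.8 ± 0.859 and 44.5 ± 2.02 CPM (SD, n = 3 each). The edgeR test gave a log2 fold change of 0.31 (SE 0.104, 95% confidence interval 0.09 to 0.54) with an adjusted p = 0.697. The unadjusted p was under 0.05 and rose above it without siControl replicate 2. KIF11, with which it shares the work of spindle bipolarity, had a log2 fold change of -0.05 (SE 0.093, 95% confidence interval -0.25 to 0.16).

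KIF21A, a kinesin-4 that restrains microtubule growth at the cell cortex, was the only tested kinesin that was lower without overlap in CPM. Its gene lies on chromosome 12 from 39293228 to 39443390, minus strand (GRCh38, GENCODE 29). It had 1365, 1465 and 1647 counts in siControl and 1198, 1111 and 1201 in siHOXA3, or 91.6, 96.8 and 108 CPM in the siControl libraries and 82.4, 73.9 and 84.6 CPM in the siHOXA3 libraries. The means were 98.8 ± 8.30 and 80.3 ± 5.65 CPM (SD, n = 3 each). The edgeR test gave a log2 fold change of -0.30 (SE 0.105, 95% confidence interval -0.53 to -0.07) with an adjusted p = 0.720. Without siControl replicate 3, its highest library, the log2 fold change was -0.23 and the unadjusted p was above 0.05. Its relative KIF21B had a log2 fold change of -0.51 (SE 0.342, 95% confidence interval -1.26 to 0.24), an interval that spans 0.

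**Figure D3:**
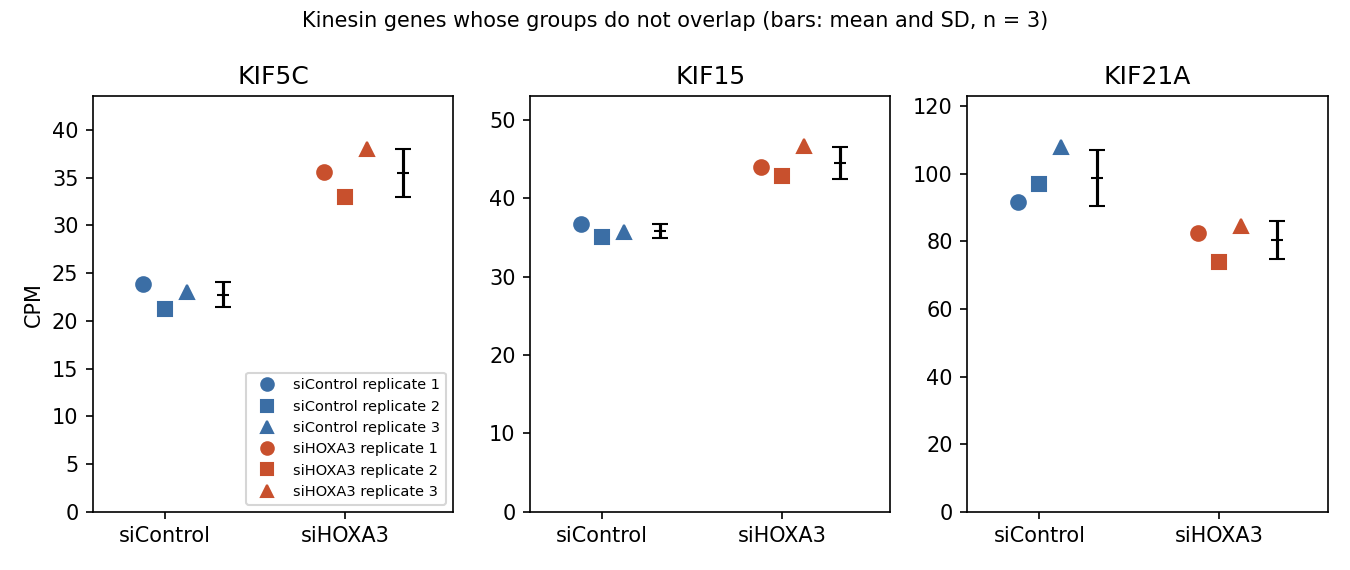
CPM of KIF5C, KIF15 and KIF21A in each library, with the mean and SD of each group (n = 3) at the right of its points and axes that start at 0. KIF5C and KIF15 are higher in all 3 siHOXA3 libraries, and KIF21A is lower in all 3.

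Much of the downward lean of the transport kinesins lay in siHOXA3 replicate 2. This library was the lowest of the 6 for 20 of 36 kinesins (55.6%), against 29.2% of all genes, and by role for 5 of 12 mitotic (41.7%), 9 of 14 transport (64.3%) and 6 of 10 other genes (60%). Against the other siHOXA3 libraries its median log2 ratio was -0.06 for mitotic, -0.32 for transport and -0.27 for other kinesins. The ratio moved with exon length over all genes tested, at 0.13 under 5000 bases, -0.05 from 5000 to under 8000 bases and -0.24 at 8000 bases or more. The kinesins had -0.0085 (n = 10), -0.26 (n = 15) and -0.21 (n = 11) in these classes. The 6 lowest were KIF21B at -1.03, KIF26B at -0.80, KIF1A at -0.79, KIF27 at -0.66, KIF13B at -0.59 and KIF1B at -0.58. KIF27 has 5140 bases of exon and the other 5 have 11112 to 17720 bases, while the highest, KIFC3 at 0.34, has 9600 bases. KIF5C, with 9215 bases of exon, was at -0.15. With a correction for transcript length the transport kinesins were 6 higher and 8 lower with a median of -0.01.

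**Figure D4:**
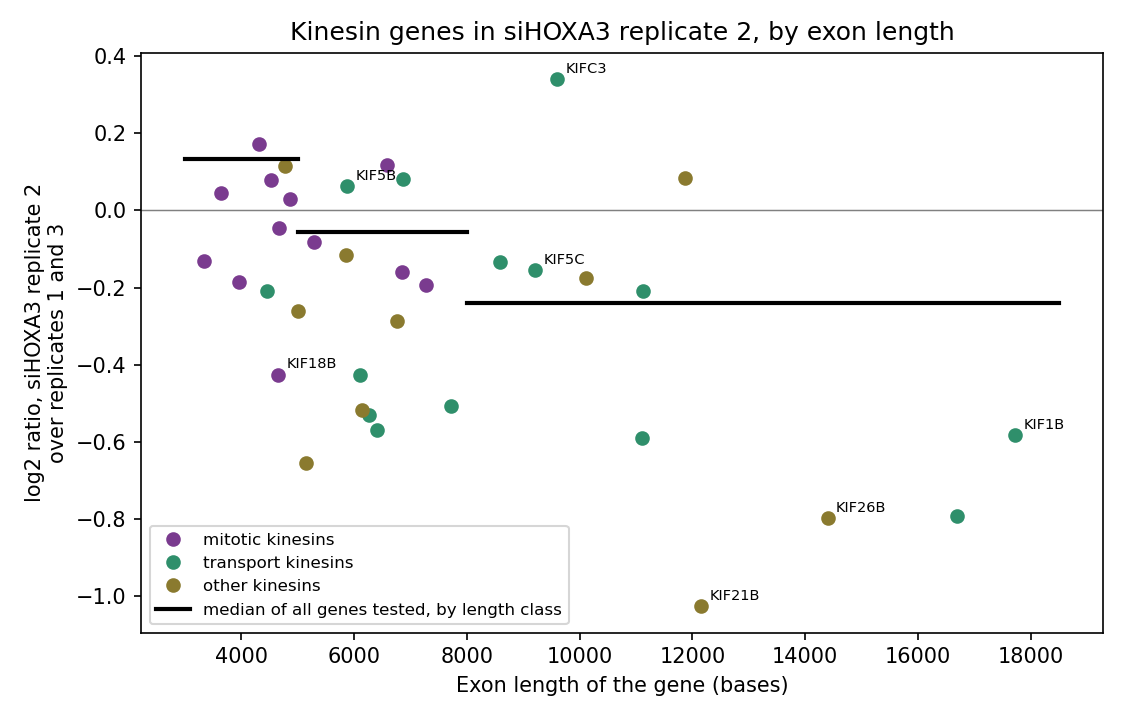
Log2 ratio of siHOXA3 replicate 2 over siHOXA3 replicates 1 and 3 for each tested kinesin gene, against the exon length of the gene in bases, coloured by role. Black lines are medians of all genes tested in 3 length classes, at 0.13, -0.05 and -0.24, and most long kinesin genes lie below 0, KIFC3 being an exception.

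No partner of the kinesins passed an adjusted p of 0.05 in edgeR. Of 22 transport partners and adaptors, such as the light chains, KIFAP3 and the TRAK and JIP adaptors, 12 were higher and 10 lower with a median log2 fold change of 0.04. The cargo adaptor FEZ1 was the 1 partner of these 22 with an unadjusted p under 0.05, a share near the 6.36% of all genes, which also stands beside the counts of the next 3 lists. It had 88, 98 and 95 counts in siControl and 106, 181 and 118 in siHOXA3 (log2 fold change 0.57, SE 0.213, edgeR adjusted p = 0.724), and its highest value was in siHOXA3 replicate 2. Of 18 spindle and midbody genes listed as partners, 12 were higher and 6 lower, 0 passed an unadjusted p of 0.05 in edgeR, and the median was 0.05. This list holds CENPE and STARD9, which are themselves kinesins outside the rule. CENPE had a mean of 129.0 CPM in siControl and 125.4 CPM in siHOXA3. Of 18 proliferation genes, 8 were higher and 10 lower, 0 passed an unadjusted p of 0.05, and the median was -0.003. Cytoplasmic dynein, the motor that walks the other way, had 16 of 17 subunits and dynactin partners tested, 9 higher and 7 lower, 0 at an unadjusted p under 0.05, with a median of 0.02.

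The summed CPM of the mitotic kinesins was 1374, 1411 and 1473 in siControl and 1414, 1370.0 and 1398 in siHOXA3. That of the transport kinesins was 1025, 995 and 980.4 in siControl and 1023, 888 and 1024 in siHOXA3, with replicate 2 alone below the siControl range. That of the other kinesins was 313 to 314 CPM in siControl and 298, 257 and 293 in siHOXA3, lower in all 3 siHOXA3 libraries. KIF21A made up the larger part of that difference, with 18.5 of the 30.6 CPM between the means. For the spindle and midbody partners, CENPE and STARD9 included, the sum was 2128, 2161 and 2163 CPM in siControl. It was slightly higher in all 3 siHOXA3 libraries, at 2169, 2201 and 2201 CPM, which was not tested.

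**Figure D5:**
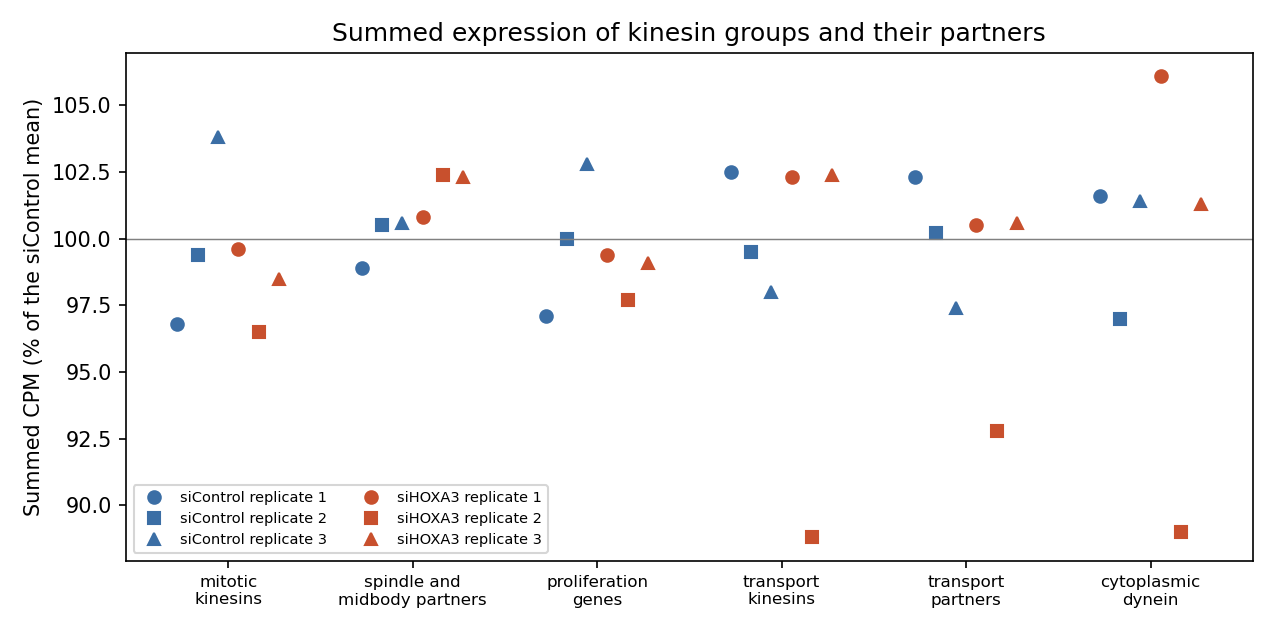
Summed CPM of the mitotic and transport kinesins and of their partners in each library, as a percentage of the siControl mean of each list. The spindle and midbody list includes the kinesins CENPE and STARD9. The axis does not start at 0. The siHOXA3 marks lie among the siControl marks for mitotic kinesins except replicate 2, just below them, and siHOXA3 replicate 2 stands at 88.8% for transport kinesins and 89.0% for cytoplasmic dynein.

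Markers of other cells were measured beside these values because KIF5C, KIF5A, KIF1A and KIF21B are known from neurons and several kinesins from cilia. Over all genes 6.36% had an unadjusted p under 0.05 in edgeR, the share to set beside each count below. Of 12 neuronal markers, 7 were tested, 4 higher and 3 lower with 0 at an unadjusted p under 0.05, and their summed level was 19.8 to 22.0 CPM in siControl and 20.1 to 22.9 CPM in siHOXA3. TUBB3, a defining neuronal tubulin, had 8 to 10 counts in siControl and 2 to 21 in siHOXA3. Of 8 markers of multiciliated cells, 3 were tested and all 3 were lower, with CCDC39, a ciliary assembly gene, at an unadjusted p under 0.05 (log2 fold change -1.21, SE 0.457, adjusted p = 0.725 in edgeR). CCDC39 was low, with 17, 14 and 27 counts in siControl and 6, 11 and 7 in siHOXA3. The sum of the 8 markers was 4.56 to 6.71 CPM in siControl and 3.38 to 4.66 CPM in siHOXA3, and DNAI2 was at 0 counts throughout. Of 10 fibroblast and mesenchyme markers, 8 were tested, 5 higher and 3 lower, with DCN, a matrix proteoglycan, at an unadjusted p under 0.05 (edgeR log2 fold change 0.47, SE 0.203, adjusted p = 0.761). The DCN groups overlapped. The sum of the 10 markers was 4519 to 4689 CPM in siControl and 4535 to 5039 CPM in siHOXA3, with COL1A1 the highest and PRRX1 at 0 counts. Of 12 markers of pharyngeal pouch endoderm, 7 were tested, 5 higher and 2 lower with 0 at an unadjusted p under 0.05, and their sum was 6595 to 6825 CPM in siControl and 6231 to 7939 CPM in siHOXA3, with the highest value in replicate 2. The part of these cells in the kinesin values was not tested.

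Reads of some kinesins could be shared with other genes, since strand and the treatment of ambiguous reads are not given in the sources used here. Of 50-base stretches, 31.7% of KIF27, 15.8% of KIFC2, 14.3% of KIF4A, 11.6% of KIF9, 11.4% of KIFC1 and 10.7% of KIF22 occur in other transcripts. The exons of KIF20A overlap those of BRD8 and CDC23, and those of KIF4A overlap PDZD11. No exon of KIF5C, KIF15, KIF21A or KIF5B overlaps another annotated gene. Marker and partner genes, TUBB3 included, were not examined for shared reads, so a low count of one may not reflect its expression.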

How the data were processed

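RNA-seq was performed on 3 siControl and 3 siHOXA3 libraries, grouped by their labels. The authors deposited raw counts per gene as whole numbers without normalization, and the paper's methods name LM-Seq while the labels also name a SMARTER kit. The submitters' processing notes name GRCm38 and mm10, which are mouse builds, although all 58735 identifiers are human and were found in GENCODE 29 (GRCh38). The aligner, counter and strandedness are not given in the sources used here. Library totals were 14117150 to 15282307 counts.

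The main test was the two-sided quasi-likelihood test of edgeR 4.0.16 under R 4.3.3, robust, after filterByExpr and TMM, with Benjamini-Hochberg adjustment over 16561 genes. CPM are TMM-scaled, and TPM were computed from exon union lengths without TMM. Confidence intervals at 95% used the degrees of freedom of the fit. The study used DESeq2, tried here as version 1.42.0, with limma 3.58.1, mgcv 1.9.3 for length, other normalizations and filters, a replicate block and each library left out. The fits were tested on simulated data. Same-numbered libraries deviated with correlations of 0.142, 0.104 and -0.059, and differently numbered ones with -0.173 to 0.0889. Whether the numbers mark pairs cannot be told from these values, and the main test used no block.

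The members and gene lists were chosen with earlier results of these data known. Named with a value in every library were the 6 mitotic, 6 transport and 3 other kinesins of highest level, the 6 with the smallest p, those whose groups do not overlap, and KIF5C, KIF11 and KIF20A. Partner and marker genes were named where p was under 0.05 or where they were the highest of their list. EPCAM, CDH1, CLDN6, KRT8, KRT18, EYA1, FOXA2, TBX1 and TUBB3 were named after their values were seen. CENPE and STARD9 were named because they are kinesins in a partner list. Floors cover counting error only.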

Additional observations from a re-analysis of the deposited data

How the results depend on the processing

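The 20 kinesins named with library values gave 280 values under the alternatives, of which 260 stayed on the same side of 0 and of the threshold, 4 of KIF5C newly passed an adjusted p of 0.05 and 16, from 9 genes, changed sign. With a library left out the log2 fold change ran from -0.040 to 0.020 for KIF5B (above 0 without siControl replicate 2 or siHOXA3 replicate 1), -0.095 to 0.015 for KIF23 (above 0 without siControl replicate 3 or siHOXA3 replicate 1), -0.21 to 0.013 for KIF3B and -0.25 to 0.024 for KIF1B (above 0 without siHOXA3 replicate 2), -0.13 to 0.013 for KIF22 (above 0 without siControl replicate 3), -0.060 to 0.10 for KIF7 (below 0 without siControl replicate 2 or siHOXA3 replicate 1), -0.014 to 0.10 for KIF1C and -0.0092 to 0.096 for KIF20A (below 0 without siHOXA3 replicate 1), and -0.032 to 0.12 for KIFC2 (below 0 without siHOXA3 replicate 3). KIF5B was also above 0 with upper-quartile normalization (0.0055) and the length correction (0.0085), KIF23 with the length correction (0.0033) and KIF3B in limma-voom (0.048), and the cause was not tested. Kinesins with an adjusted p under 0.05 numbered 1, KIF5C, with DESeq2, no filter and limma-voom, and 0 to 1 with a library left out. Over all genes the count was 38 with DESeq2, 100 with no filter, 47 in limma-voom and 1 to 24 with a library left out, the 24 being without siHOXA3 replicate 2. At an unadjusted p it was 1862 with no filter, 2206 in limma-voom and 643 to 1828 with a library left out, the lowest without siControl replicate 2 (643) and siControl replicate 3 (671). With the replicate block 4 genes passed over all genes and 0 kinesins, KIF5C having an adjusted p of 0.184. Median log2 fold changes with a library left out were -0.091 to 0.0077 for mitotic and -0.16 to 0.024 for transport kinesins. They were 0.048 to 0.083 for spindle and midbody partners (0.066 with upper-quartile normalization), -0.0069 to 0.22 for neuronal and 0.051 to 0.19 for fibroblast markers. For multiciliated markers the median was -0.15 with no filter. With the longest protein-coding transcript as length, the mitotic share in siControl was 63.7%, and KIF23 (204.9 TPM) stood above KIF5B (159.2 TPM). The filter on low counts left 6 kinesins untested.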
